A study of Mus musculus with 102 samples.

Results

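PHF5A occupancy was examined in mouse embryonic stem (ES) cells of the 129/Ola strain, from a deposited table of chromatin immunoprecipitation with sequencing (ChIP-seq). The table lists regions that carry histone H3 lysine 4 methylation, H3K4me1 or H3K4me3 or both, and for each region the proteins found there. The PHF5A regions are the 13437 of 67697 regions at which PHF5A is listed, 19.8% of all. A protein is listed at a region from a log2 enrichment of about 0.585, a fold of 1.5. The lowest listed PHF5A value was 0.59, and values below the limit are not in the table, so a region without PHF5A is one where PHF5A lay below that limit or gave no value.

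PHF5A is a small PHD-finger-like protein of the SF3b complex, the part of the U2 small nuclear ribonucleoprotein that recognises the branch point of introns before splicing. In ES cells it is also known to bind the PAF1 complex, which acts on elongating RNA polymerase II. H3K4me1 marks enhancers and the flanks of promoters, H3K4me3 marks active promoters, and acetylation of lysine 27 (H3K27ac) marks elements that are active.

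The labels give these cells a strain and no genotype, and no treatment other than growth on feeders, feeder-free passaging and crosslinking. They name 2 PHF5A libraries, made with the Santa Cruz antibody sc82995x, 3 input libraries, and 1 to 3 libraries for each of 16 other proteins. Nothing in the labels says that the libraries came from separate cultures, or that the cells were more than a single line. The table gives 1 value per protein and region, so the spread between libraries and the depth are unknown and no comparison here was tested between libraries. Intervals are at 95%, Wilson for shares, Newcombe for their differences, from order statistics or a normal approximation for medians and means, and cover counting error over regions only, and neighbouring regions are not independent. Standardised values compare groups at equal region width or at equal numbers of other listed proteins. PHF5A libraries of MLL3/4 double-knockout cells and their floxed parental cells are named in the labels and were not analysed here.

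The PHF5A regions were spread over enhancer-like and promoter-like chromatin. Of the 13437, 5815 (43.3%) had both H3K4me1 and H3K4me3, 6111 (45.5%) had H3K4me1 only and 1511 (11.2%) had H3K4me3 only. The whole table has a different make-up, with 27.2%, 61.8% and 11.0% of its regions in these classes. PHF5A was thus listed most often where both marks were present.

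PHF5A was listed at 31.6% (30.9 to 32.2) of the 18425 regions with both marks, at 14.6% (14.3 to 15.0) of the 41819 regions with H3K4me1 only and at 20.3% (19.4 to 21.2) of the 7453 regions with H3K4me3 only. The difference between regions with both marks and with H3K4me1 only was 16.9 percentage points (16.2 to 17.7). It was above 0 on all of the 20 chromosomes compared, from 11.7 to 22.3 points. At equal numbers of other listed proteins the order turned, as described below.

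Set beside the other 16 proteins, PHF5A was among the less widely listed. It came 15th of 17 by number of regions, with BRG1 (12687) and WSTF (6414) below it. Of its regions, 45.5% lay in the H3K4me1-only class, a share exceeded only by WSTF with 55.1%, and SRSF2 followed with 45.2%. The H3K4me3-only class took up 11.2% of the PHF5A regions, the third lowest share after BAZ1A (10.5%) and SSRP1 (11.0%), while RUVBL2 had the highest, 23.4%.

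Enrichment at PHF5A regions was modest and differed little between classes. The median log2 enrichment was 0.92 over all PHF5A regions, a fold of 1.90. Other proteins had similar values: PHF5A came 14th of 17, with medians from 0.90 for RUVBL1 to 1.14 for WSTF. The PHF5A median was 0.95 at PHF5A regions with both marks (quartiles 0.82 and 1.12), 0.90 with H3K4me1 only (0.78 and 1.06) and 0.90 with H3K4me3 only (0.79 and 1.04). The median with both marks was 0.04 (0.03 to 0.05) above that with H3K4me1 only, and that with H3K4me1 only differed from that with H3K4me3 only by 0.01 (-0.01 to 0.02).

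Most PHF5A values lay near the listing limit. Of the 13437 values, 8476 (63.1%) did not reach log2 1, which is a fold of 2. At that stricter limit PHF5A was present at 4961 regions, 7.33% of all. The share was 13.2% (12.7 to 13.7) with both marks, 4.94% (4.74 to 5.15) with H3K4me1 only and 6.24% (5.71 to 6.81) with H3K4me3 only. The order of the classes was the same at both limits.

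**Figure D1:**
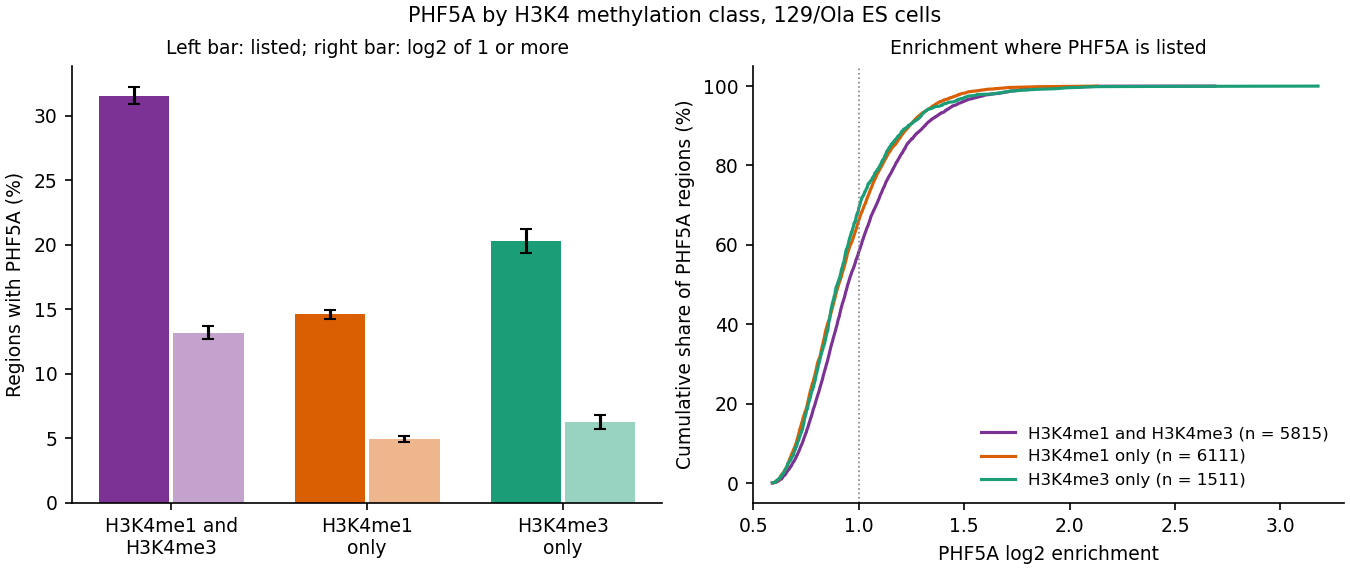
Share of regions with PHF5A (left, percent, with 95% Wilson intervals; the left bar of each pair counts all listed values, the right bar values of log2 1 or more) and cumulative distribution of the PHF5A log2 enrichment at PHF5A regions (right, dotted line at log2 1) in the 3 H3K4 methylation classes. Regions with both marks have the highest shares, 31.6% and 13.2%, while the 3 distributions lie close together with medians of 0.95, 0.90 and 0.90.

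The strongest PHF5A regions were short, but did not carry more other proteins than PHF5A regions on average in every class. At a log2 enrichment of 1.5 or more the mean number was 11.7 with both marks, 7.83 with H3K4me1 only and 9.51 with H3K4me3 only. At all PHF5A regions of these classes it was 10.5, 5.41 and 10.2. With both marks the highest value was a log2 enrichment of 2.69, a fold of 6.45, at chromosome 15, 51957157 to 51957338 (mm9), a region of 182 bp. That region carried 13 of the other 16 proteins, among them the splicing factor SRSF1 at a log2 enrichment of 2.65, and H3K27ac at 2.48. The next values were 2.25 at chromosome 7, 104017926 to 104018138, with 14 other proteins, and 2.15 at chromosome 5, 125507382 to 125507673, with 11.

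With H3K4me1 only the highest PHF5A value was 2.13, a fold of 4.38, at chromosome 16, 78553025 to 78553233. This region is on the authors' list of active enhancers, with H3K27ac at 1.79 and 13 other proteins, including the BAF ATPase BRG1 at a log2 enrichment of 2.14 and the cohesin subunit SMC3 at 1.89. The highest PHF5A value on the list of poised enhancers was 2.09, at chromosome 16, 96262574 to 96262785, where H3K27ac was not listed and 7 other proteins were. The next poised enhancer, at chromosome 7, 86514186 to 86514433, had 1.96, with H3K27ac at 0.82 and 11 other proteins. The next active enhancer had 2.06, with H3K27ac at 1.49 and 7 other proteins.

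The highest PHF5A value of the table, a log2 enrichment of 3.18 and a fold of 9.05, lay in the H3K4me3-only class at chromosome 1, 4239814 to 4239994. It carried SRSF1 at 2.76, SRSF2 at 2.50 and 8 further proteins, and no listed H3K27ac. A region at chromosome 2, 181747431 to 181747730 was alike, with PHF5A at 2.50, SRSF1 at 2.72, SRSF2 at 2.40 and no H3K27ac. The third of the class, at chromosome 9, 96753365 to 96753668, had 2.14 with H3K27ac at 1.09.

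Many of these strong regions had no peak of H3K4me1, H3K4me2 or H3K4me3 in R1, an ES line of strain 129SV for which the authors deposited peak positions. The labels name R1 libraries of wild-type and of MLL3/4 double catalytic dead cells, and which of them the peaks were called in is not stated. With both marks 31.4% (25.7 to 37.8) of the 223 PHF5A regions at a log2 enrichment of 1.5 or more, a limit chosen after the values were seen, overlapped no R1 peak, as did 10.6% of all PHF5A regions and 4.93% of regions without PHF5A. With H3K4me1 only it was 50.0% (40.8 to 59.2) of 110 such regions, 38.7% of all PHF5A regions and 26.3% of regions without PHF5A. With H3K4me3 only it was 28 of 43 (65.1%, 50.2 to 77.6), 8.07% and 2.07%. The regions at 1.5 or more were short, with median widths of 244, 248 and 284 bp in these 3 classes. At equal width the share without an R1 peak was higher at all PHF5A regions than at regions without PHF5A by 1.45, 2.55 and 2.35 points. What sets these regions apart was not tested.

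H3K27ac was more often present where PHF5A was. It was listed at 90.6% (89.8 to 91.3) of PHF5A regions with both marks, against 87.2% (86.6 to 87.8) of regions of that class without PHF5A. With H3K4me1 only it was at 60.4% (59.2 to 61.6) of PHF5A regions and at 44.0% (43.5 to 44.6) of regions without PHF5A. With H3K4me3 only the shares were 91.7% (90.2 to 93.0) and 89.4% (88.6 to 90.2). Over all regions H3K27ac was listed at 62.6%. The gap was widest where H3K4me1 stood alone.

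The same relation counted from the mark gave PHF5A at 19% (18.5 to 19.6) of H3K4me1-only regions with H3K27ac and at 10.8% (10.4 to 11.2) of those without it, a difference of 8.20 points (7.51 to 8.88) that was above 0 on 20 of 20 chromosomes. With both marks it was 32.4% against 25.4%, and with H3K4me3 only 20.7% against 16.7%. The direction turned in all 3 classes at equal numbers of other proteins, with values given below. Counted in points, PHF5A was nevertheless one of the proteins whose listing differed least by H3K27ac. At H3K4me1-only regions its difference came 15th of 17, above BRG1 (7.37 points) and WSTF (-0.874), while SRSF2 had the largest, 24.4 points. A difference in points also depends on how often a protein is listed, and SRSF2 was at 39.5% and PHF5A at 14.6% of this class. H3K27ac was at 61.8% of the SRSF2 and 60.4% of the PHF5A regions of the class, 12th and 14th of 17.

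The relation to the level of H3K27ac was not a steady rise. At H3K4me1-only regions PHF5A was listed at 10.8% without listed H3K27ac, at 16.6% for an H3K27ac log2 enrichment up to 1, at 20.8% from 1 to 2, at 12.9% (11.2 to 14.9) from 2 to 3 and at 4 of 63 regions (6.35%, 2.50 to 15.2) from 3. Regions with both marks also peaked from 1 to 2 and were lower above it, with 25.4%, 24.4%, 35.6%, 24.9% and 18.6%, but without a step between regions with no listed H3K27ac and those up to 1. At H3K4me3-only regions PHF5A was instead most frequent at the highest H3K27ac, at 16.7%, 13.4%, 18.6%, 23.2% (21.4 to 25.1) and 37.6% (33.0 to 42.4).

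The drop at strongly acetylated regions was shared by some proteins and not by others. From 2 to 3 against 1 to 2 on the H3K27ac scale, PHF5A was 7.83 points lower at H3K4me1-only regions and 10.8 points lower with both marks. Width moved with H3K27ac: the median width of H3K4me1-only regions was 1194 bp from 2 to 3 and 720 bp from 1 to 2. With shares standardised to width the PHF5A differences were -5.16 and -4.80 points. In the H3K4me1-only class 7 of 17 proteins were lower from 2 to 3 than from 1 to 2, among them SSRP1 of the FACT histone chaperone (-10.95 points), the PHD-finger protein PHRF1 (-9.85) and BAZ1A (-9.02), a subunit of ISWI remodellers. BAF155, a core subunit of BAF remodellers, was 16 points higher and the RuvBL ATPase RUVBL2 14.7 points higher. These values and the count of 7 are not standardised to width. With shares standardised to width 5 of 17 proteins were lower in this class, and BRG1 (2.01 points) and SRSF1 (1.43) were no longer among them. None of the 17 was lower in the H3K4me3-only class, where PHF5A was 4.59 points higher.

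**Figure D2:**
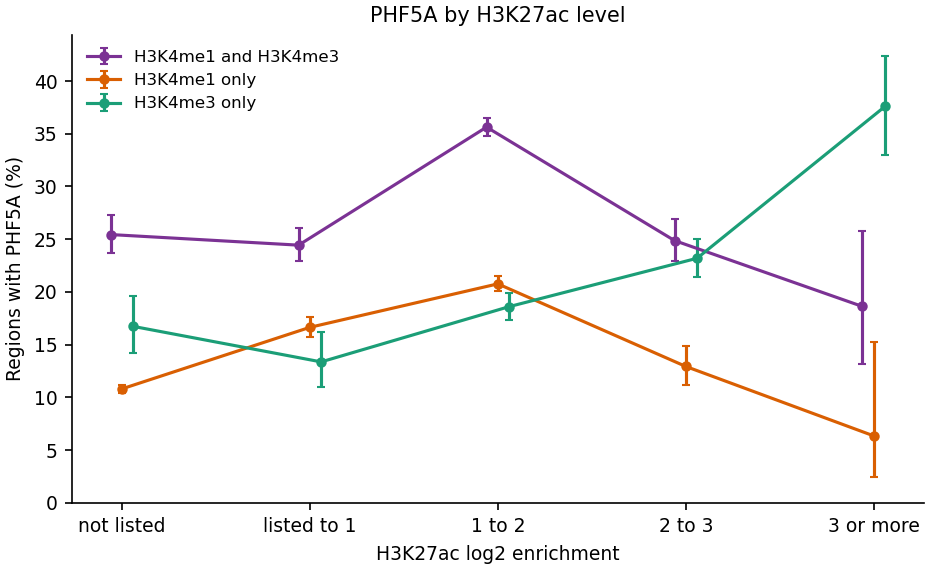
Share of regions with PHF5A (percent, with 95% Wilson intervals) by H3K27ac log2 enrichment in the 3 H3K4 methylation classes. The share peaks from 1 to 2 with both marks (35.6%) and with H3K4me1 only (20.8%), and is highest from 3 with H3K4me3 only (37.6%).

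On the authors' enhancer lists PHF5A was more frequent at active than at poised enhancers, at 22.1% (21.4 to 22.8) of 12492 active and 17.1% (16.6 to 17.7) of 19567 poised ones, a difference of 4.93 points (4.03 to 5.83). Every listed enhancer has at least 1 of 13 names, PHF5A among them, and the active list starts where H3K27ac reaches log2 1. All 6111 PHF5A regions with H3K4me1 only are therefore on one of the lists, 2757 active and 3354 poised. Split at the same H3K27ac level without the lists, PHF5A was at 19.96% of 13811 regions at or above it and at 11.98% of 28008 other H3K4me1-only regions, a difference of 7.99 points (7.22 to 8.76). Where listed, PHF5A had a median log2 enrichment of 0.93 at active and 0.89 at poised enhancers.

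PHF5A regions were narrow. Median widths were 684 bp with and 1330 bp without PHF5A in the class with both marks, 336 and 607 bp with H3K4me1 only, and 1242 and 1566 bp with H3K4me3 only. When H3K4me1-only regions were placed in 5 equal groups by width, PHF5A was listed at 21.8% (20.9 to 22.7) of the narrowest, then at 20.5%, 17.2%, 9.37% and 4.15% (3.74 to 4.60) of the widest. The same fall was seen with both marks, at 46.3%, 40.4%, 32.6%, 26.5% and 12.05%. With H3K4me3 only it was weaker, at 29.5%, 22.1%, 19.9%, 16.7% and 13.2%.

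Values of PHF5A fell with width as well. The median log2 enrichment of PHF5A regions with H3K4me1 only was 1.001 in the narrowest and 0.73 in the widest group. At a limit of log2 1, PHF5A was present at 915 of the 8364 narrowest and at 7 of the 8364 widest H3K4me1-only regions. Across PHF5A regions Spearman's rho of the value with width was -0.46 with both marks (5815 regions), -0.41 with H3K4me1 only (6111) and -0.44 with H3K4me3 only (1511). A fall of the value with width was common to all 17 proteins, with rho from -0.47 to -0.23 in the H3K4me1-only class. How the authors averaged signal over a region is not given in the sources used here, so a value that is diluted in wide regions cannot be told apart from weaker binding there.

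The fall in the share itself was not common to all, but in the H3K4me1-only class nearly all proteins had it. There 16 of 17 proteins had a lower median width where listed than where not. SSRP1 was the exception, and only its share was lower in the narrowest than in the widest group (ratio 0.892). With both marks 8 of 17 proteins had a lower median width where listed, and with H3K4me3 only 10 of 17. In the class with both marks, PHF5A was listed 3.84 times as often in the narrowest as in the widest group. Only WSTF (7.13 times), BRG1 (5.25) and BAZ1A (4.73) had higher ratios, and the lowest were SAP18 (0.735) and BAF155 (0.629), which were listed less often in narrow than in wide regions. At H3K4me1-only regions the ratio of PHF5A, 5.25, was again the fourth highest after WSTF (9.15), BRG1 (6.35) and BAZ1A (5.33), while those of the splicing factors SRSF1 (1.93) and SRSF2 (1.15) were nearer to 1. PHF5A thus had these ratios in common with WSTF, BRG1 and BAZ1A but not with the ISWI ATPase SNF2H, at 1.69. WSTF, BRG1, PHF5A and BAZ1A were also the least listed proteins, 17th, 16th, 15th and 14th of 17 by number of regions. SNF2H came 4th, SRSF1 3rd and SRSF2 1st. The orders were not the same throughout, as BAF155, with the lowest ratio with both marks, came 12th. The part of listing frequency in the ratios was not tested.

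**Figure D3:**
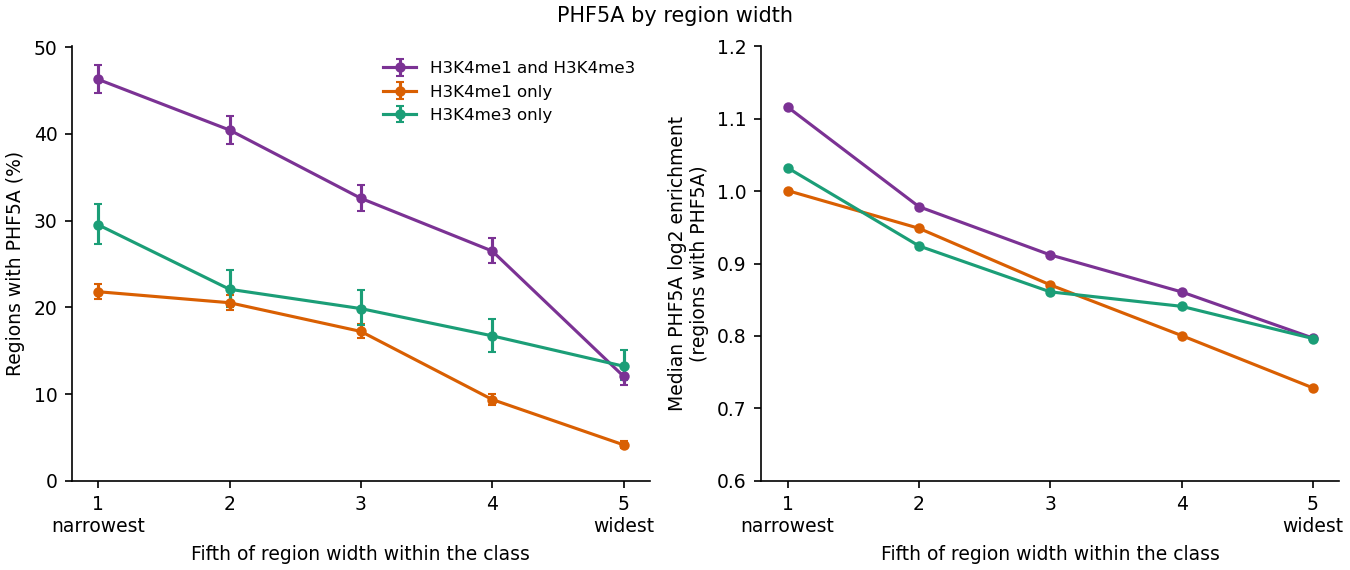
Share of regions with PHF5A (left, percent, with 95% Wilson intervals) and median PHF5A log2 enrichment at PHF5A regions (right) in 5 equal groups by region width, from narrowest to widest, within each H3K4 methylation class. In the H3K4me1-only class the share is 21.8% in the narrowest and 4.15% in the widest group.

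PHF5A regions carried more of the other 16 proteins than regions without it. The mean number was 10.5 ± 3.15 (SD over regions) at PHF5A regions with both marks, against 8.16 ± 3.60 without PHF5A. It was 5.41 ± 3.15 against 2.73 ± 2.68 with H3K4me1 only and 10.2 ± 3.25 against 6.94 ± 3.77 with H3K4me3 only. The difference at H3K4me1-only regions was 2.68 (2.59 to 2.76), and 2.61 with the means standardised to width.

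PHF5A was seldom found without company. It stood alone at 213 of its 6111 H3K4me1-only regions (3.49%), while 24.1% of the H3K4me1-only regions without PHF5A had none of the other 16. With both marks 2 PHF5A regions stood alone, and with H3K4me3 only 5. The 213 lone regions had a lower median PHF5A log2 enrichment, 0.78 against 0.91 at those with other proteins, and 20.2% had H3K27ac, against 61.8%. Other proteins had as much company: the mean number at H3K4me1-only PHF5A regions came 7th of 17, with BAF155 the highest at 5.81 and WSTF the lowest at 3.78.

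The share with PHF5A was higher the more other proteins a region had, with small exceptions between neighbouring numbers. At H3K4me1-only regions it was 2.42% (2.12 to 2.76) with none, 18.3% with 4, 31.8% with 8, 47.2% with 12 and 65.2% (56.0 to 73.4) with 13. With both marks it was 0.962% with none, 12.6% with 4, 26.6% with 8, 39.5% with 12 and 70.7% (66.9 to 74.2) with 15. With H3K4me3 only it was 2.48% with none, 7.86% with 4, 17.0% with 8, 36.1% with 12 and 57.1% (48.9 to 65.0) with 15.

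At equal numbers of other proteins the order of the classes turned. With 8 other proteins PHF5A was at 26.6% (24.5 to 28.7) of regions with both marks, 31.8% (29.4 to 34.2) with H3K4me1 only and 17.0% (14.3 to 20.1) with H3K4me3 only. Standardised to the number of other proteins, the difference in PHF5A share was -4.49 points for both marks minus H3K4me1 only and 8.38 points for H3K4me1 only minus H3K4me3 only. The differences by H3K27ac and between enhancer lists turned as well, to -0.910 points at H3K4me1-only regions with minus without H3K27ac and to -2.28 points at active minus poised enhancers. The other classes turned further, to -2.29 points with both marks and -9.89 points with H3K4me3 only, with minus without H3K27ac. Regions where PHF5A stands alone are on an enhancer list because of PHF5A, which bears on the -2.28 points. Split at H3K27ac log2 1 without the lists, the difference was -1.64 points. The number of other proteins moved with these groups: H3K4me1-only regions had a mean of 4.70 at an H3K27ac log2 enrichment of 1 to 2 and of 2.06 without listed H3K27ac. Its part in the differences was not tested further.

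**Figure D4:**
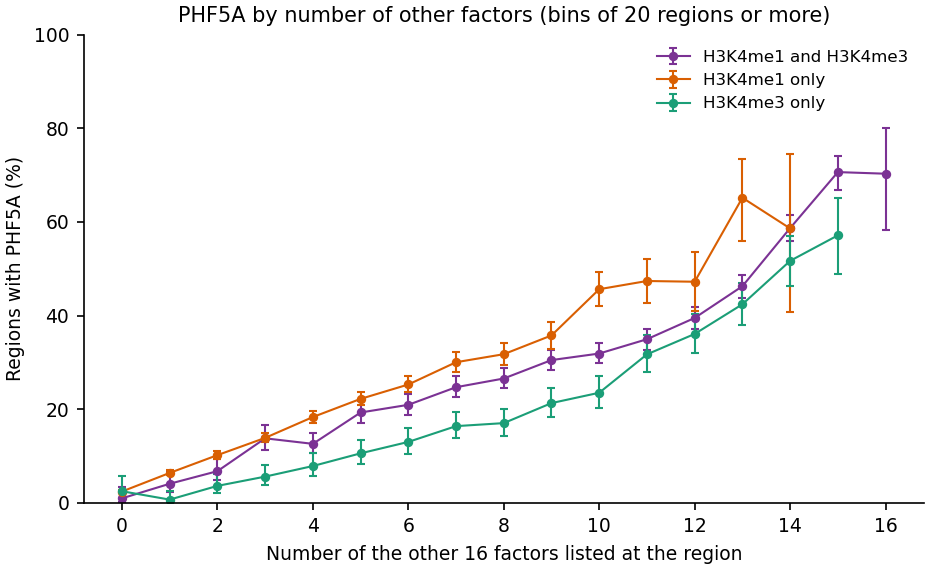
Share of regions with PHF5A (percent, with 95% Wilson intervals) by the number of the other 16 proteins listed at the region, for bins of 20 regions or more, in the 3 H3K4 methylation classes. The share is higher with more other proteins in every class, and at 8 other proteins it is 26.6% with both marks, 31.8% with H3K4me1 only and 17.0% with H3K4me3 only.

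Among the partners, the splicing factors come first by role. SRSF1 and SRSF2 are serine- and arginine-rich proteins that bind exon sequences and help to define splice sites. SRSF2, listed at 54% of all regions, was at 56.7% of PHF5A regions with H3K4me1 only and at 36.5% of such regions without PHF5A, a difference of 20.2 points (18.8 to 21.5). SRSF1, listed at 40.8% of all, was at 45.6% and 23.4%, a difference of 22.2 points (20.9 to 23.6). Counted from the other side, 21.0% of the SRSF2 and 25% of the SRSF1 regions of this class had PHF5A. By this share only WSTF, at 18.2%, was lower than SRSF2. The ratio of the shares with and without PHF5A was 1.55 for SRSF2 and 1.95 for SRSF1. By this ratio too only WSTF, at 1.30, was lower than SRSF2. At equal numbers of the other 15 proteins the differences for SRSF2 and SRSF1 in this class were 6.86 and 8.06 points. With both marks SRSF2 was at 84.9% of PHF5A regions and 77.3% of regions without PHF5A. That difference of 7.62 points came 14th of 16, and at equal numbers it was -0.0936 points, against 5.26 for SRSF1. With H3K4me3 only the differences at equal numbers were 5.85 points for SRSF2 and 11.4 points for SRSF1.

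Regions with both SR proteins had PHF5A most often. With H3K4me1 only PHF5A was at 29.1% (28.0 to 30.2) of 6200 regions with SRSF1 and SRSF2, at 19.9% of 4948 with SRSF1 without SRSF2, at 16.1% of 10315 with SRSF2 without SRSF1 and at 8.15% (7.79 to 8.54) of 20356 with neither. The mean number of the 16 proteins in these groups, the SR proteins included, was 6.75, 4.13, 3.94 and 1.35. With both marks the shares were 38.4%, 30.6%, 22.4% and 16.8%. Of the PHF5A regions with H3K4me1 only, 27.2% had neither SR protein.

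Of the ISWI proteins, SNF2H and BAZ1A differed widely between H3K4me1-only regions with and without PHF5A and WSTF little. SNF2H, the ISWI ATPase, listed at 39.8% of all regions, was at 45.3% of PHF5A regions and 22.1% of regions without PHF5A, and this difference of 23.2 points (21.9 to 24.5) was the largest of the 16. It was 6.22 points at equal numbers of other proteins, below BAZ1A, SRSF1, PHRF1 (7.88) and SRSF2. By the ratio of the shares, 2.05, SNF2H came 8th of 16, while BRG1 (2.47) came 2nd and RUVBL1 (2.28) 3rd. BAZ1A (22.8% of all), which forms the ACF and CHRAC complexes with SNF2H, was at 34.4% and 13%, the largest ratio of the 16, 2.65, and the largest difference at equal numbers of proteins, 8.61 points. WSTF (9.47% of all), another partner of SNF2H, was at 10.5% and 8.10%, the smallest difference (2.41 points), which with shares standardised to width was -0.390 points.

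With both marks BAZ1A stood out further. It was at 58.9% of PHF5A regions and at 28.8% of regions without PHF5A, a difference of 30.1 points that remained 22.2 points at equal numbers of other proteins. Of the BAZ1A regions of this class, 48.5% had PHF5A. BRG1, the ATPase of BAF complexes (18.7% of all regions), followed at 45.4% and 22.9%, with 15.6 points at equal numbers, and 47.8% of its regions had PHF5A. BAF155, of the same complexes (26.1% of all), was at 59.9% and 49.1%, with a difference of -3.75 points at equal numbers. At equal width BAZ1A still differed most, by 24.0 points. BRG1, at 16.5 points, then stood above only RUVBL2 (15.5), SAP18 (12.6), SRSF2 (11.2) and WSTF (-0.582). All others were above BRG1, among them MED12 (21.5), RUVBL1 (20.2) and BAF155 (17.3). By the unstandardised difference MED12, at 52.7% and 31.9%, and SRSF1, at 77.4% and 60.0%, came next, and SAP18, at 81.0% and 73.8%, and WSTF, at 11.5% and 9.52%, differed least.

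PHRF1, a PHD- and RING-finger ubiquitin ligase (36.6% of all regions), was at 42.1% and 19.7% of H3K4me1-only regions with and without PHF5A, a difference of 22.4 points. The Mediator subunits bridge enhancer-bound factors to RNA polymerase II. At H3K4me1-only regions SUR2 (31.4% of all) was at 32.8% and 15.1%, MED1 (32.6% of all) at 32.4% and 16.1%, and MED12, of the kinase module (24% of all), at 27.8% and 13.4%. The cohesin subunit SMC3 (36.9% of all) was at 38.2% and 22.6%. BAF155 was at 17.4% and 8.85%, the second smallest difference, 8.51 points, and at equal numbers of other proteins 0.315. By the ratio of these shares, 1.96, it came 10th of 16.

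RUVBL1 and RUVBL2, the paired ATPases of INO80 and TIP60 complexes, and SAP18, found with SIN3 and with splicing-dependent complexes, were frequent at all H3K4me3-only regions. RUVBL2 (38.5% of all regions) was at 86.9% of PHF5A regions and 80.3% of regions without PHF5A, and SAP18 (42.1% of all) at 83.2% and 71.3%. At equal numbers of other proteins the differences were -7.87 points for RUVBL2 and -7.46 points for SAP18. RUVBL1 (31.3% of all) was at 76.6% and 57.1%, with -0.295 points at equal numbers. In that class SUR2 and PHRF1 had the largest differences, 30.8 points each, SRSF1 was at 80.9% and 53.8%, and SSRP1 (34% of all) was at 55.5% and 28.4%.

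All 16 partners were more frequent at PHF5A regions than at regions without PHF5A with both marks and with H3K4me1 only, and 15 of 16 with H3K4me3 only, where WSTF was at 12.6% and 13.8%. At equal numbers of other proteins 12, 16 and 11 of 16 were more frequent. Values went together too: across regions with both proteins listed, rho of the PHF5A and partner log2 enrichment was from 0.17 to 0.41 with both marks, from 0.12 to 0.31 with H3K4me1 only and from 0.27 to 0.46 with H3K4me3 only. The 2 values share the region and its width, and rho is a description only.

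**Figure D5:**
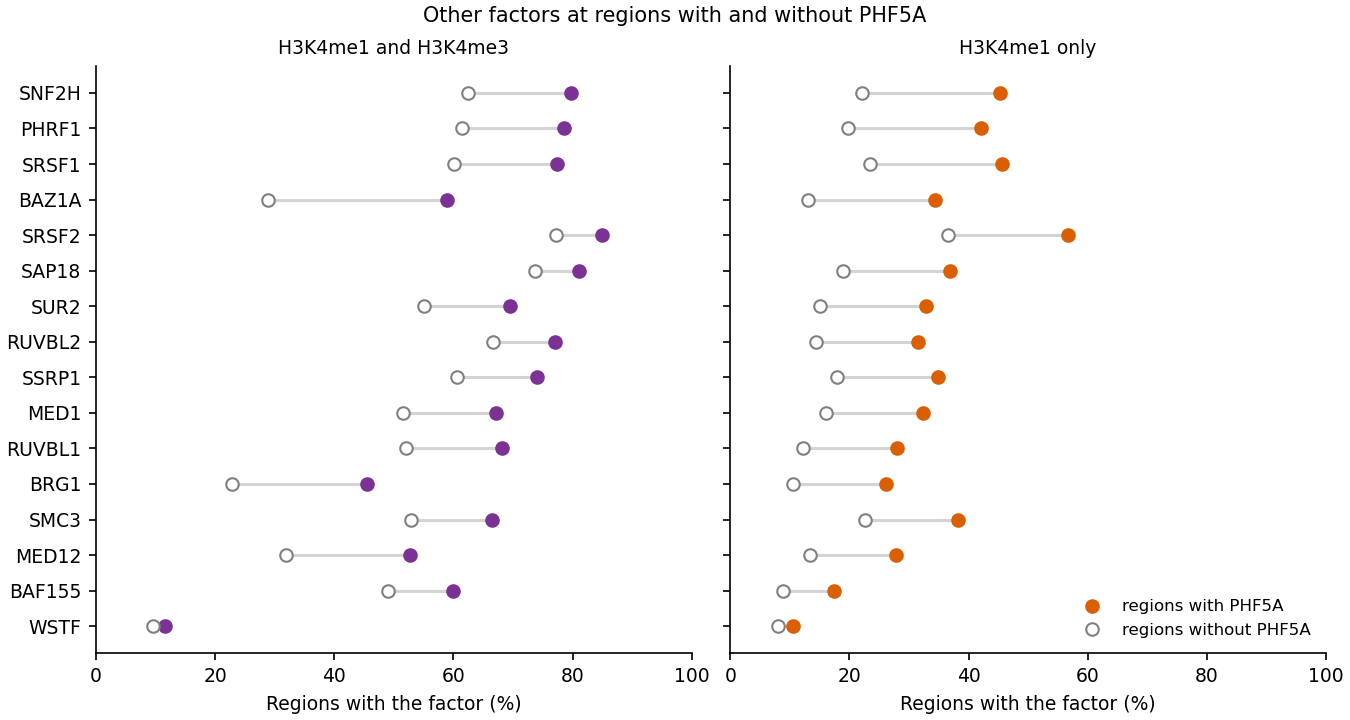
Share of regions (percent) with each of the other 16 proteins at regions with PHF5A (filled circles) and without PHF5A (open circles), in the class with both marks (left) and with H3K4me1 only (right), ordered by the difference in the H3K4me1-only class. SNF2H differs most with H3K4me1 only (45.3% and 22.1%), BAZ1A with both marks (58.9% and 28.8%), and WSTF least in both.

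At H3K4me1-only regions strong PHF5A regions differed from weak ones in partners and in width. When the PHF5A regions with H3K4me1 only were placed in 4 equal groups by value, the mean number of other proteins was 4.39, 5.10, 5.56 and 6.58 from the lowest to the highest, and the median width was 554, 389, 309 and 268 bp. BAZ1A was at 23.5%, 30.6%, 38.5% and 45.2% of these groups, BRG1 at 18.4%, 22.8%, 27.3% and 35.9% and SRSF2 at 52.2%, 55.8%, 55.1% and 63.7%. H3K27ac changed less, at 58.8%, 58.7%, 60.8% and 63.2%. Not every partner was more frequent at strong regions in the other classes. With both marks SAP18 was at 82.1% of the lowest and 78.7% of the highest group, and with H3K4me3 only RUVBL2 was at 90.2% and 79.4%, SAP18 at 85.4% and 75.7% and RUVBL1 at 78.8% and 69.6%. BAZ1A was more frequent in the highest group there too, at 43.3% of the lowest and 73.1% of the highest with both marks and at 24.6% and 58.7% with H3K4me3 only. BAZ1A and BRG1 were also listed more often in narrow than in wide regions. These shares are not standardised to width, and the part of width in them was not tested.

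PHF5A was found at distal as well as proximal regions. R1 peak positions carry the authors' distal or proximal label, and regions that overlapped peaks of a single label were compared. With H3K4me1 only PHF5A was at 15.7% (14.5 to 17.1) of 2853 proximal and 12.3% (11.9 to 12.7) of 25707 distal ones. With both marks it was at 30.7% of 7118 proximal and 34.0% of 7890 distal ones, and with H3K4me3 only at 17.9% of 4560 proximal and 23.4% of 1051 distal ones. At equal width the differences, proximal minus distal, were 3.35 points with both marks, 2.76 with H3K4me1 only and -0.841 with H3K4me3 only. They were -8.55, 1.37 and -11.7 points at equal numbers of other proteins. The direction with both marks thus depended on which of these was held equal. In the other 2 classes it was the same under each, with PHF5A more frequent at proximal regions with H3K4me1 only. With H3K4me3 only PHF5A was more frequent at distal regions, though by less than 1 point at equal width.

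PHF5A regions had another PHF5A region nearby about as often as other regions did. Another PHF5A region was within 10000 bp of 28.8% (27.7 to 30.0) of PHF5A regions and 27.4% (26.9 to 27.8) of regions without PHF5A in the H3K4me1-only class. With both marks it was 31.8% and 33.2%, and with H3K4me3 only 17.6% and 19.9%. Across the 19 autosomes the share of H3K4me1-only regions with PHF5A ranged from 12.2% on chromosome 6 to 18.6% on chromosome 11. On the X chromosome it was 22.1% of 86 regions (14.6 to 31.9), an interval that overlaps the autosomal range.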

How the data were processed

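Occupancy was measured by ChIP-seq in 129/Ola mouse ES cells. Per the submitters' processing notes the build was mm9 and Bowtie, Picard and MACS2 were used; for versions, roles, input and pooling the sources used here give nothing. Each region and protein has 1 log2 enrichment value as deposited by the authors, and depth is unknown. Names matching no 129/Ola library, 11 in number, were not used. H3K4me1 and H3K4me3 hold a constant and were read as presence. Shares, medians and counts were computed with Python 3.11.15, pandas 2.3.3, numpy 2.4.6 and scipy 1.17.1, and the functions were tested on simulated data. Standardised values compare groups within 10 width groups, or within numbers of proteins, weighted by both groups together; strata held by 1 group only are left out. R1 peaks gave positions and distal or proximal labels only, at 1 bp of overlap. Starts are 1-based. No genome or annotation of mm9 was used, so regions were not tied to genes and no sequence is shown. Named regions are the 3 highest PHF5A values of each class and the 2 highest of each enhancer list. Of the partners, the 4 largest and 2 smallest differences and both SR proteins were to be named; the others were added after their values were seen. Members, lists and comparisons were chosen with earlier results of these data known.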

Additional observations from a re-analysis of the deposited data

How the results depend on the processing

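Over 8 results and 54 alternatives, 51 kept the direction and 3 reversed. All 3 differences in PHF5A share reversed when standardised to the number of other proteins. Of the 54, 14 lay within the interval of the main value. Limiting the regions to autosomes, which leaves out only 643 X and 2 Y regions, left all 8 results within their intervals. No paired analysis was possible because the table gives 1 value per protein and region and no columns for single libraries. The PHF5A share with both marks minus H3K4me1 only (16.9 points) was 8.24 for PHF5A at log2 1 or more, 21.6 standardised to width and, in settings chosen after seeing the data, -4.49 standardised to the number of other proteins, 17.8 at regions with an R1 peak and 14.0 at regions with another protein. The share with minus without H3K27ac at H3K4me1-only regions (8.20) was 3.22, 11.2, -0.910, 6.81 and 5.95 under the same settings, and 7.50 without the narrowest regions. Active minus poised (4.93) was 3.05 at log2 1 or more, 8.63 standardised to width, -2.28 standardised to number, 3.48 with an R1 peak, 3.92 without the narrowest regions and 7.99 without the lists. The median log2 difference between both marks and H3K4me1 only (0.0433) was 0.0218 at log2 1 or more, 0.0695 without the narrowest regions and 0.0560 with an R1 peak, and the width ratio with over without PHF5A (0.554) was 0.482, 0.529 and 0.431. The difference in mean number of other proteins (2.68) was 3.42, 2.89 and 2.82 in these settings, 1.68 for proteins at log2 1 or more and 2.01 at regions with another protein. For SRSF2 the difference (20.2) was 23.8 at log2 1 or more, 22.9 without the narrowest regions, 22.0 standardised to width, 6.86 standardised to number, 15.3 for SRSF2 at log2 1 or more, 21.8 with an R1 peak and 10.6 with another protein. For SRSF1 (22.2) it was 26.9 at log2 1 or more, 24.0 without the narrowest regions, 8.06 standardised to number, 15.4 for SRSF1 at log2 1 or more and 16.5 with another protein. The cause of these changes was not tested. Depth and the spread between libraries are unknown, and 63.1% of PHF5A values lie below log2 1, near the listing limit.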
